A study of Mus musculus with 12 samples.

Results

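The genes described here are 8 genes that the reference places on chromosome 15, distal to the targeted gene Arc: Apobec3, D730005E14Rik, Cyb5r3, Ift27, C1qtnf6, Rpl3, Ncf4 and Csnk1e. They are 8 of 22180 genes measured, and they lie 183 (Ift27) to 401 (Cyb5r3) genes from Arc in the reference gene order. They were chosen by the difference between knockout and wildtype log2 signals on these same arrays, so their knockout and wildtype values are given below as a description, with no test. Each gene is represented by the probe set that carries its symbol alone, and Rpl3, which has 3 such probe sets, by the brightest of them.

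The cells were dendritic cells, which present antigen to T cells, raised in culture from the marrow of 8-week-old C57BL/6 mice under GM-CSF (20 ng/ml), a cytokine that drives their growth. The 4 groups, with 3 arrays each, were Arc/Arg3.1 -/- cells given LPS, Arc/Arg3.1 -/- cells left untreated, Arc/Arg3.1 +/+ cells given LPS, and Arc/Arg3.1 +/+ cells left untreated. LPS, the Toll-like receptor 4 ligand of Gram-negative bacteria, was given at 100 ng/ml for 30 min and the cells then stayed in medium for 1 h. The labels do not describe the making of the knockout allele, the strain origin of the DNA around it or any backcrossing. Replicates are titled biological, with no animal named, so a p-value covers the spread among these arrays only, part of which may be technical. Precision is limited by how few arrays there are.

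The 8 genes have unrelated roles. Apobec3 encodes a cytidine deaminase that restricts retroviruses in the mouse, and D730005E14Rik is listed as a long non-coding RNA gene that begins inside Apobec3 on the opposite strand. Cyb5r3 encodes an NADH-dependent reductase of cytochrome b5, Ncf4 the p40phox subunit of the phagocyte NADPH oxidase, and Csnk1e a casein kinase that phosphorylates clock proteins. Ift27 encodes a small GTPase of the intraflagellar transport B complex in cilia, C1qtnf6 a secreted protein of the C1q and TNF related family, and Rpl3 a protein of the large ribosomal subunit.

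The start regions of the overlapping pair Apobec3 and D730005E14Rik are shown because these genes had the largest drop in the knockout among the 8 and moved together over the arrays. RefSeq windows of 250 bases before to 50 bases after a listed start were found for 5 of the 8 genes (build GRCm38.p6). The Apobec3 window lies at chr15:79892158-79892457 on the + strand and the D730005E14Rik window at chr15:79893089-79893388 on the - strand, and their starts are 730 bases apart. Capitals mark matches on either strand to 8 motifs that were searched.
Apobec3: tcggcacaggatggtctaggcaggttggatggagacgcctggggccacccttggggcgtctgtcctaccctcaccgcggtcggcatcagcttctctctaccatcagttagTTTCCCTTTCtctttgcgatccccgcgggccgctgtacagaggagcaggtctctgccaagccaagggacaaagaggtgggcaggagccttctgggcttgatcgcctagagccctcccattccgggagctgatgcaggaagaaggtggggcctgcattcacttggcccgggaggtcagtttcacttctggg
D730005E14Rik: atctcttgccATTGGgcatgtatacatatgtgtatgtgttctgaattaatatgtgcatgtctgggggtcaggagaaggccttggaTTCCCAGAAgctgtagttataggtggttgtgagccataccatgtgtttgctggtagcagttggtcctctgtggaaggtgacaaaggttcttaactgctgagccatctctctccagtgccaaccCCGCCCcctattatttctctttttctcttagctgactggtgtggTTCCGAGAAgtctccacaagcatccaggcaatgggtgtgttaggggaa

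The Apobec3 window held 1 match, at its base 111, to the interferon response element core (GAAA, 2 bases of any kind, GAAA), read on the other strand, and 3.4% of all 32851 RefSeq windows hold this core. The D730005E14Rik window held 2 matches to the GAS element TTCNNNGAA (8.3% of windows), 1 to CCAAT (37.4%) and 1 to the GC box GGGCGG (35.7%). No match overlapped another. The NF-kB motif (GGGA, 4 bases of any kind, CC, 20.7%), TATAAA (13.6%), GGAAGT (23.8%) and GAGGAAGT (3.2%) were not found in either window. A downstream Apobec3 start, with its own window, held matches to the NF-kB motif, CCAAT and TATAAA. A match is a description of letters in the reference and not a site of binding.

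The arrays stand apart in 3 ways that touch the values below. Arc was at a log2 signal of 7.68 to 8.05 on the 6 knockout arrays and 9.21 to 9.62 on the 6 wildtype arrays (log2 -1.49, SE 0.12, adjusted p = 0.0015 by limma over all genes). Among the 3 arrays of untreated wildtype cells, the SD of the difference between any pair was 0.105 to 0.108 over 6440 genes of mean log2 signal above 8, against 0.193 to 0.438 for pairs within the other groups. They were therefore counted as 1 sample, their mean, in every test. All animals are labelled male, but 9 arrays had Xist, a non-coding RNA made from an inactivated X, at 11.22 to 11.92 and Kdm5d, Eif2s3y and Uty, which are on the Y chromosome, at 3.33 to 4.86. The other 3 arrays (LPS-treated knockout replicate 2, untreated knockout replicate 2 and LPS-treated wildtype replicate 1) had these Y-linked genes at 8.14 to 9.89. Small nucleolar RNA genes had a median of 9.21 to 9.38 on 4 arrays, the LPS-treated replicates 2 and 3 of each genotype, while the remaining 8 had 10.21 to 10.76. The mean log2 signal of 9 dendritic cell markers was 10.24 to 10.61 on the knockout arrays and 10.23 to 10.55 on the wildtype arrays. That of 8 B cell markers was 6.41 to 6.69 on knockout and 6.41 to 6.80 on wildtype arrays, close to the median of all probe sets (6.50 to 6.67).

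Apobec3 was lower on every knockout array than on any wildtype array. Its log2 signal was 10.18, 9.18 and 9.33 in LPS-treated knockout cells (replicates 1, 2 and 3) and 10.46, 9.63 and 9.51 in untreated knockout cells. It was 10.71, 10.78 and 10.71 in LPS-treated wildtype cells and 10.78, 10.79 and 10.80 in untreated wildtype cells. The range was 1.28 over the knockout arrays and 0.09 over the wildtype arrays, with replicate 1 of either treatment nearest to wildtype. Over both treatments the difference was -1.05 on the log2 scale (SE 0.24), a signal 2.06-fold lower in the knockout.

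D730005E14Rik was also highest in replicate 1 among the knockout arrays of either treatment, while replicates 2 and 3 were not in the order they had for Apobec3. Its log2 signal was 7.38, 6.36 and 6.05 in LPS-treated knockout cells and 7.67, 6.20 and 6.53 in untreated knockout cells, against 8.16, 8.08 and 8.17 in LPS-treated and 7.90, 8.14 and 8.27 in untreated wildtype cells. Knockout replicate 1 again lay between the wildtype arrays and the other 4 knockout arrays. The difference over both treatments was -1.42 (SE 0.33), the largest among the 8 genes. The 4 lower knockout values lie close to the background level of the arrays, taken as the median of probe sets with no gene symbol (5.89 to 6.10), so the 2.68-fold drop in signal is no measure of the drop in transcript. The reference transcripts of both genes overlap on opposite strands, and signal of one gene on the probe set of the other was not tested.

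Cyb5r3 was lower in the knockout in another order of replicates. Its log2 signal was 10.64, 10.20 and 10.60 in LPS-treated and 10.61, 10.15 and 10.67 in untreated knockout cells, against 10.97, 10.98 and 11.00 in LPS-treated and 11.02, 11.05 and 10.94 in untreated wildtype cells. Replicate 2 of either treatment was the lowest of the knockout arrays, and the genotypes did not overlap. These replicate 2 arrays are those with Y-linked signal, and the wildtype array with Y-linked signal (10.97) lay within the range of the other wildtype arrays. The difference was -0.52 (SE 0.14), and -0.37 without the 3 arrays with Y-linked signal.

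**Figure D1:**
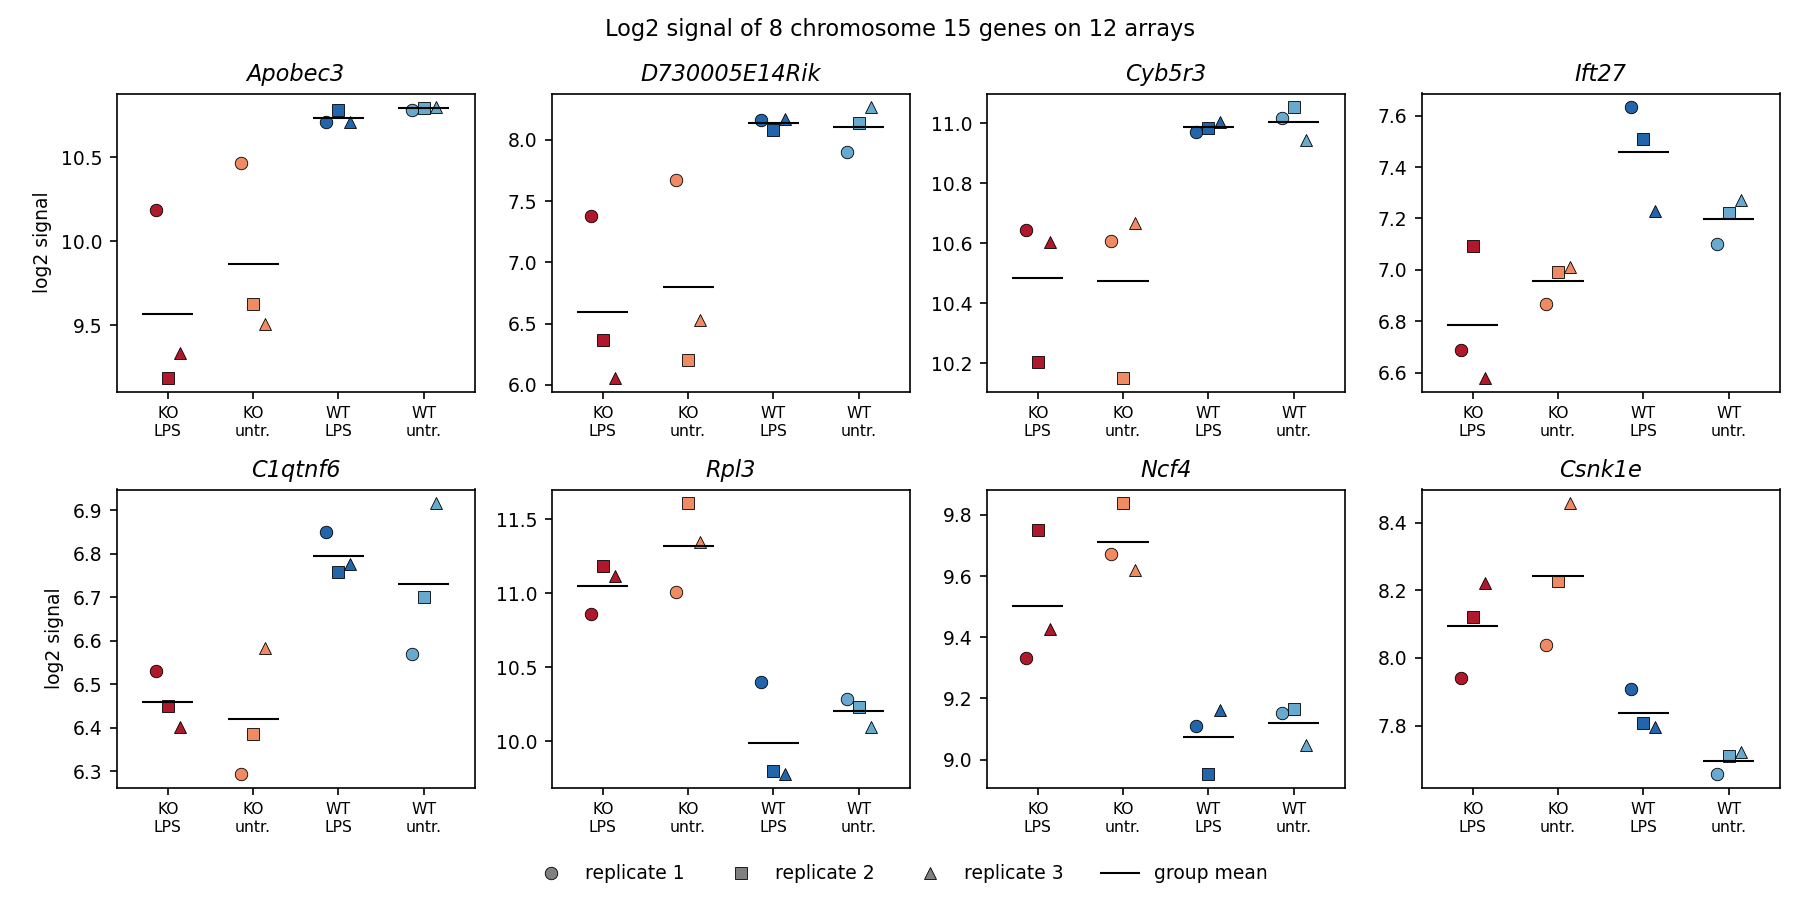
Log2 signal (vertical axes, a separate range for each gene) of the 8 genes on 12 arrays. Columns are LPS-treated and untreated (untr.) knockout (KO) and wildtype (WT) cells, circles, squares and triangles are replicates 1, 2 and 3, and lines are means of 3 arrays. In the Apobec3 and D730005E14Rik panels knockout replicate 1 lies between the other knockout arrays and wildtype, and in the Cyb5r3 panel knockout replicate 2 is lowest.

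Ift27 and C1qtnf6 were lower in the knockout by less, and at dim signals. Ift27 had a log2 signal of 6.69, 7.09 and 6.58 in LPS-treated and 6.87, 6.99 and 7.01 in untreated knockout cells, against 7.63, 7.51 and 7.23 in LPS-treated and 7.10, 7.22 and 7.27 in untreated wildtype cells. The genotypes were separated by 0.0083, between LPS-treated knockout replicate 2 and untreated wildtype replicate 1, and the difference was -0.46 (SE 0.13). C1qtnf6 lay between 6.29 and 6.58 on the knockout arrays and between 6.57 and 6.92 on the wildtype arrays, where untreated knockout replicate 3 overlapped untreated wildtype replicate 1. Its difference of -0.32 (SE 0.09) was the smallest of the 8.

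Ncf4 and Csnk1e were higher in the knockout. Ncf4 had a log2 signal of 9.33, 9.75 and 9.43 in LPS-treated and 9.67, 9.84 and 9.62 in untreated knockout cells, against 9.11, 8.95 and 9.16 in LPS-treated and 9.15, 9.17 and 9.05 in untreated wildtype cells. Every knockout array lay above every wildtype array, with a gap of 0.17, and replicate 2 was the highest knockout array in either treatment. As for Cyb5r3, these replicate 2 arrays are those with Y-linked signal. The wildtype array with Y-linked signal (9.11) lay within the range of the other wildtype arrays. The difference was 0.51 (SE 0.11), or 1.42-fold. Csnk1e had 7.94, 8.12 and 8.22 in LPS-treated and 8.04, 8.23 and 8.46 in untreated knockout cells, against 7.91, 7.81 and 7.80 in LPS-treated and 7.66, 7.71 and 7.72 in untreated wildtype cells. Its genotypes were 0.03 apart, between the LPS-treated arrays of replicate 1, and the difference was 0.40 (SE 0.11).

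Rpl3 had the largest increase in the knockout among the 8 genes, but on only 1 of its 3 probe sets. On the brightest probe set the log2 signal was 10.86, 11.18 and 11.11 in LPS-treated and 11.01, 11.61 and 11.35 in untreated knockout cells, against 10.40, 9.80 and 9.78 in LPS-treated and 10.29, 10.23 and 10.09 in untreated wildtype cells. The genotypes were 0.46 apart, and the difference was 1.09 (SE 0.17), or 2.13-fold higher. The 2 lowest wildtype values are on arrays with low small RNA signal, and without the 4 such arrays the difference was 0.79. Leaving them out keeps replicate 1 as the only LPS-treated array of each genotype. In the knockout this replicate was nearest to wildtype for Rpl3, Apobec3 and D730005E14Rik. Without the 4 arrays the difference was -0.72 for Apobec3 and -1.04 for D730005E14Rik. On the next probe set, with 8.87 to 9.51 in the knockout and 8.77 to 9.55 in wildtype, it was 0.11, and on the dimmest, with 5.54 to 6.37 in the knockout and 5.85 to 6.47 in wildtype, it was -0.08. Both of these overlapped between genotypes.

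The 3 probe sets of Rpl3 also differ in their place in the array's numbering. Probe set numbers follow the chromosomes on this array: 98.4% of neighbours in number order are genes of the same chromosome. Of the 40 nearest genes in number order around the brightest Rpl3 probe set, 40 are on chromosome X and 0 on chromosome 15, whereas around each of the other Rpl3 probe sets 39 of 39 are on chromosome 15, as are all those placed in the reference (39 or 40) around the probe set of each of the other 7 genes. The 40 chromosome X neighbours differed between knockout and wildtype by -0.34 to 0.24 on the log2 scale. Ribosomal protein genes have many near-identical processed copies, so the signal of the brightest probe set is uncertain as a measure of the chromosome 15 gene. The other 35 measured genes of the large ribosomal subunit differed by -0.10 to 0.16 between knockout and wildtype, with a median of 0.01, and 0 of them passed the test. Snord83b and Snord43, small nucleolar RNAs within Rpl3, differed by -0.085 (SE 0.18) and -0.13 (SE 0.13).

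**Figure D2:**
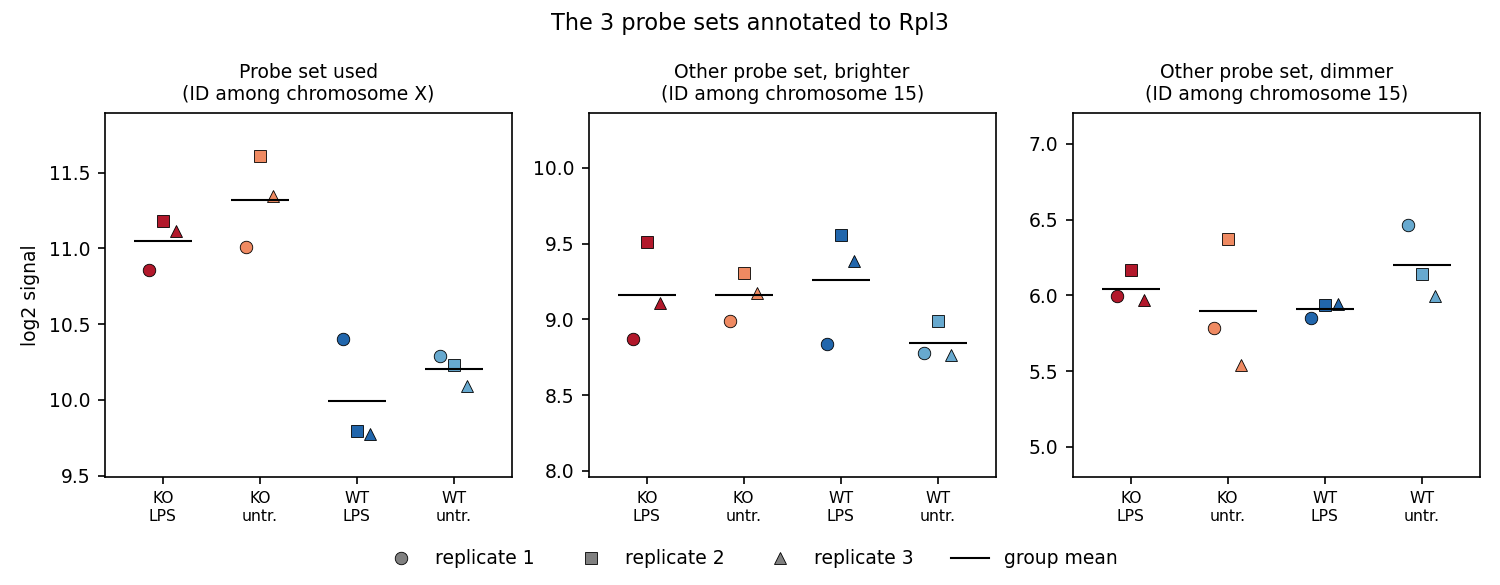
Log2 signal (vertical axes of equal span) of the 3 probe sets annotated to Rpl3, on LPS-treated and untreated (untr.) knockout (KO) and wildtype (WT) arrays. Markers are replicates and lines are means of 3 arrays. The probe set whose number lies among chromosome X genes separates the genotypes by 0.46, and the 2 probe sets numbered among chromosome 15 genes overlap.

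In all, 3 of the 8 genes were higher and 5 lower in the knockout. The arrays of 7 did not overlap between genotypes, which the choice of the genes favours. Over all genes tested, 98 of 22180 (0.442%) had 6 knockout arrays wholly above or below 6 wildtype arrays, 24 of them above (0.108%) and 74 below (0.334%). By the limma test over both treatments 3 of 22180 genes (0.0135%) passed an adjusted p of 0.05, Psca, Them6 and Arc. Psca and Them6 lie 4 and 5 genes from Arc.

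The differences of the genes between the 8 were mostly smaller. From Ift27 to Cyb5r3, 124 other genes were measured, with a median difference between knockout and wildtype of -0.02 and a range of -0.44 to 0.39, and 0 of them passed the limma test (3, or 2.42%, at an unadjusted p under 0.05, against 732, or 3.3%, of all genes). None of these 124 had genotypes without overlap over both treatments. The choice of the 8 by genotype from this same stretch favours smaller differences and overlap among the rest. Since only Psca, Them6 and Arc passed, 0 calls do not set the 124 apart from the 8. In size, 2 of the 124 exceeded the smallest difference among the chosen genes (C1qtnf6, -0.32), Maff at -0.44, which also exceeded Csnk1e (0.40), and Mir33 at 0.39. Both were named after their values were seen, and in both the genotypes overlapped. Maff had 6.87 to 8.11 in the knockout and 7.31 to 8.55 in wildtype, and Mir33 had 4.14 to 5.20 in the knockout and 3.98 to 4.98 in wildtype. Within untreated cells neither gene overlapped between genotypes, over 3 arrays of each. The share of all genes that separate there was not counted. Fewer arrays make separation easier for any gene, and the untreated wildtype arrays were nearly alike. Maff had 7.23, 6.87 and 7.21 in untreated knockout and 7.63, 7.31 and 7.58 in untreated wildtype cells. Mir33 had 5.09, 4.93 and 4.75 in untreated knockout and 4.65, 3.98 and 4.04 in untreated wildtype cells. With LPS both overlapped, Maff between knockout replicate 1 (8.11) and wildtype replicate 2 (8.06).

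Next to the 8 genes, 13 distinct neighbours differed by -0.26 to 0.10, with a median of -0.12, 0 of them without overlap and 0 called (0 also at an unadjusted p under 0.05). The choice of the 8 by genotype favours small differences among these neighbours too. Cbx7, which encodes a Polycomb protein and follows Apobec3 directly, differed by -0.26 (SE 0.12), and Dnal4, the measured gene before D730005E14Rik, by -0.21 (SE 0.13). On either side of Ncf4, Pvalb differed by -0.13 (SE 0.12) and Csf2rb2, a receptor subunit gene, by -0.18 (SE 0.09). Before Arc, 0 of 285 measured genes of chromosome 15 had genotypes without overlap, and beyond Cyb5r3 2 of 313 (0.64%) had.

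**Figure D3:**
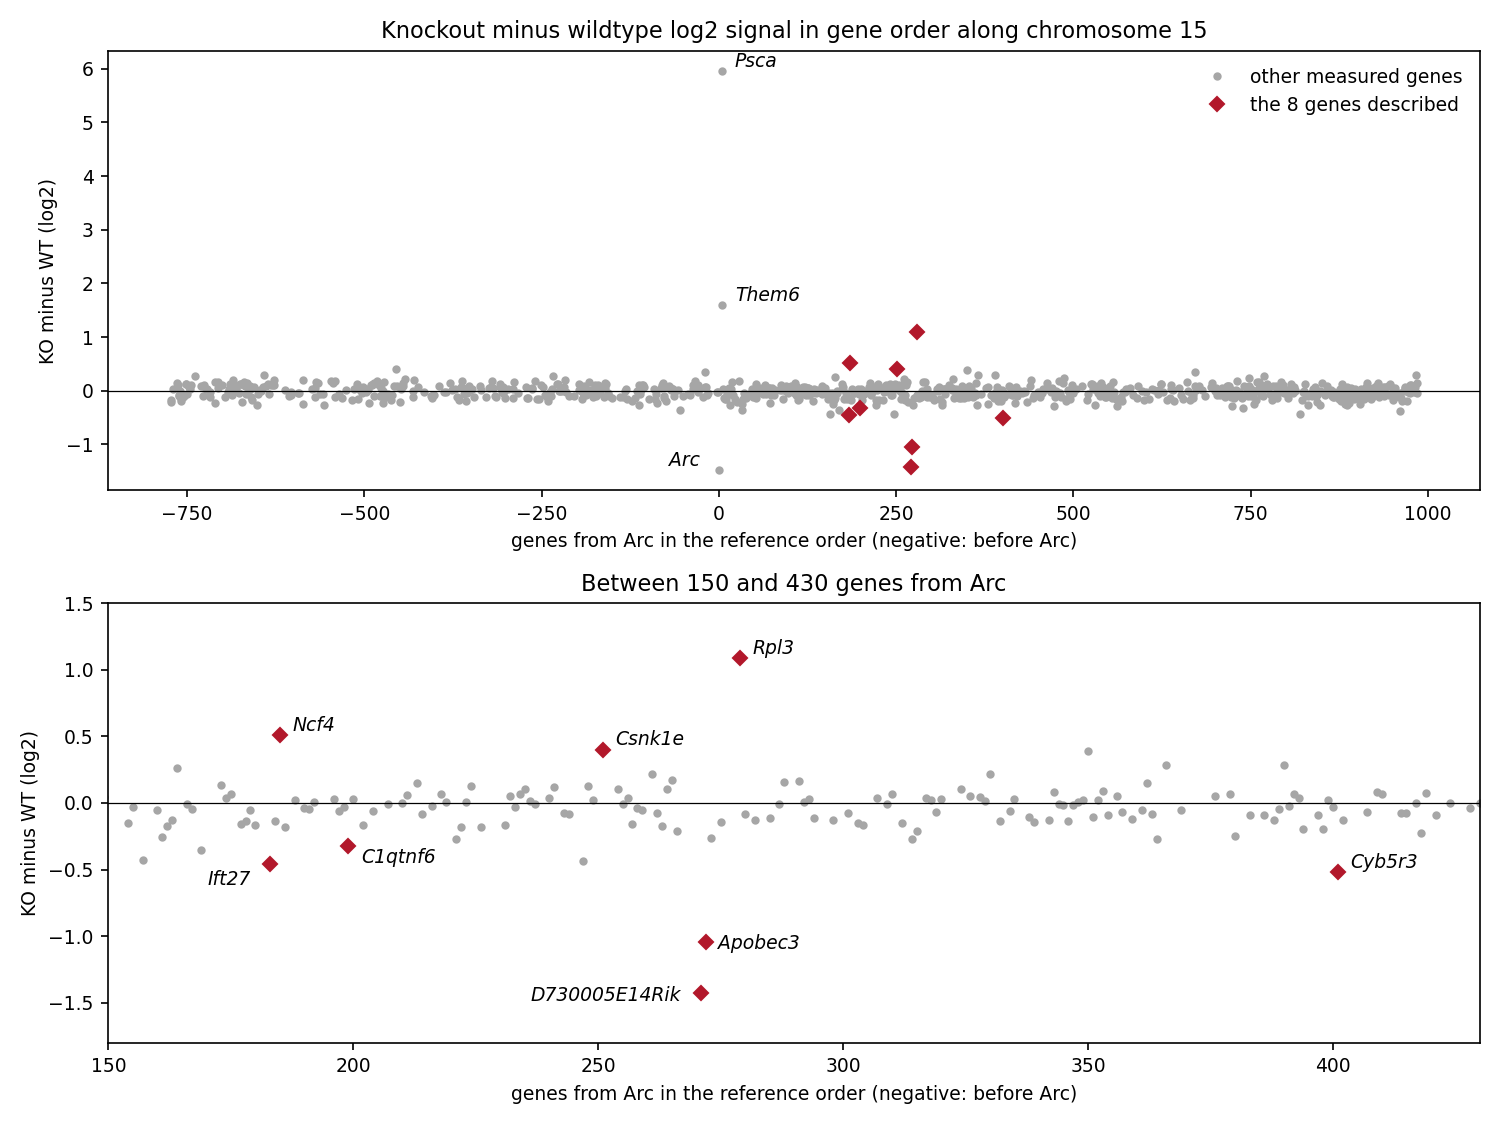
Knockout minus wildtype log2 signal over both treatments (vertical axes) of 839 measured genes of chromosome 15, by their order from Arc in the reference (horizontal axes, in genes), for the whole chromosome (top) and around the 8 genes (bottom). Diamonds are the 8 genes and grey points the others, and the 124 other genes of the stretch lie between -0.44 and 0.39.

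The knockout arrays differed by replicate number in ways that the treatments shared. Against the wildtype mean of the same treatment, Apobec3 in knockout replicate 1 was at -0.55 with LPS and -0.33 untreated, while replicates 2 and 3 were at -1.55 to -1.17. For D730005E14Rik the values were -0.76 and -0.43 in replicate 1 and -2.08 to -1.57 in the others. For Cyb5r3 they were -0.78 and -0.85 in replicate 2 and -0.40 to -0.34 in replicates 1 and 3. Rpl3 was higher by 0.87 and 0.81 in replicate 1 and by 1.12 to 1.40 in the others. Ift27 kept no such order, with LPS values of -0.77, -0.36 and -0.88 and untreated values of -0.33, -0.21 and -0.19 in replicates 1, 2 and 3.

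Within the 6 knockout arrays Apobec3 and D730005E14Rik had a Pearson r of 0.93, and Apobec3 and Cyb5r3 0.44. Over all 12 arrays these were 0.97 and 0.85. These are descriptions of a few arrays that share replicate numbers and, over 12, the genotype. The labels give no meaning to a replicate number beyond its group. A limma F test for replicate number, chosen after these values were seen, called 0 of the 8 genes, against 0.0271% of all genes.

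**Figure D4:**
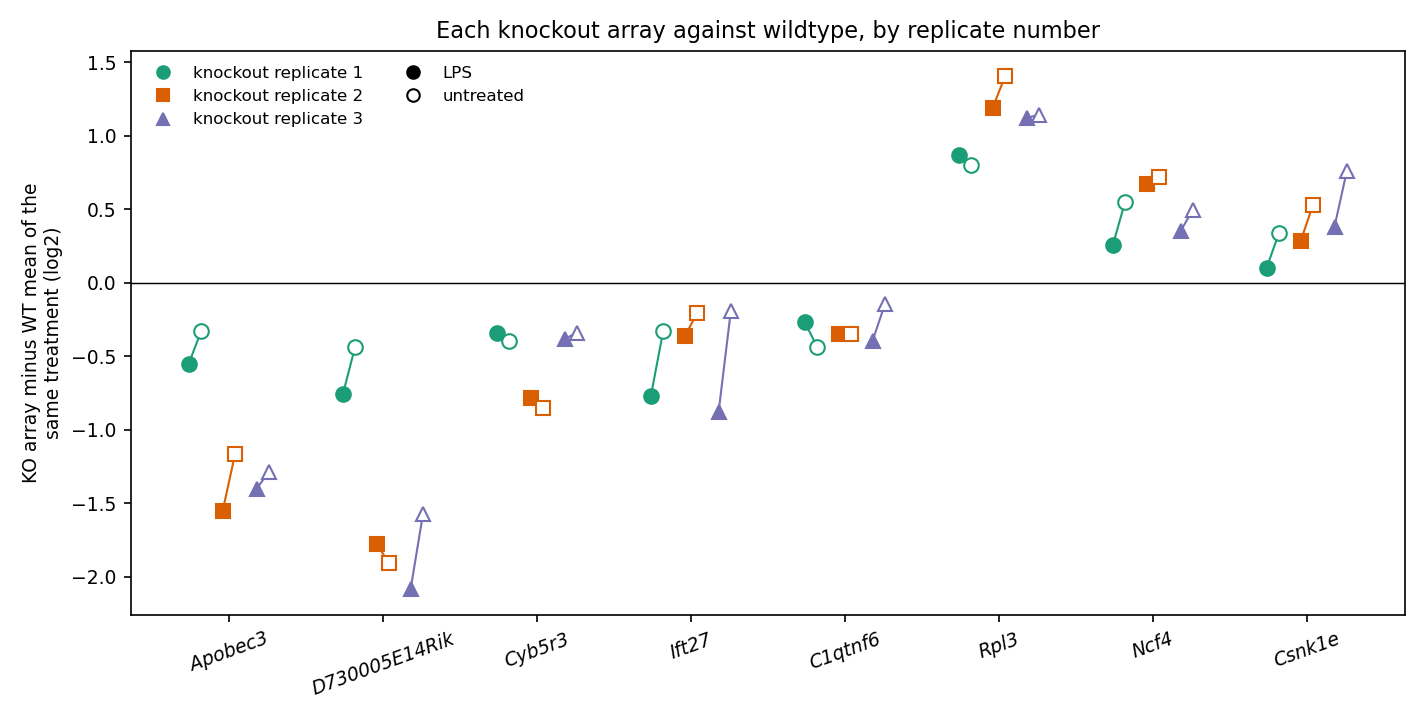
Each of the 6 knockout arrays minus the wildtype mean of the same treatment (vertical axis, log2), for the 8 genes. Colours and shapes are knockout replicates 1, 2 and 3, and filled and open markers, joined for each number, are LPS-treated and untreated cells. Replicate 1 lies nearest to 0 for Apobec3 and D730005E14Rik and replicate 2 farthest from 0 for Cyb5r3, in both treatments.

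LPS was a comparison that the choice of the genes did not use, and none of the 8 passed the test in either genotype. In knockout cells 0 of 8 passed an adjusted p of 0.05 by limma, against 5.91% of all genes called. At an unadjusted p under 0.05 by limma there were also 0 of 8, against 4493 (20.26%) of all genes. In wildtype cells 0 of 8 passed (0 also unadjusted), against 1.57% of all genes called and 2199 (9.91%) at an unadjusted p under 0.05. The SE of an LPS difference was larger in wildtype than in knockout cells (Rpl3 0.28 and 0.20), with untreated wildtype counted as 1 sample. Fewer calls in wildtype cells are therefore not a measure of a weaker response. For the interaction of genotype and LPS 0 of 8 passed (0 also unadjusted). Of all genes 0% were called, and 982 (4.43%) were at an unadjusted p under 0.05.

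The intervals of the LPS differences were widest for the genes whose knockout replicates spread. In knockout cells Apobec3 differed with LPS by -0.30 (95% interval -0.92 to 0.32, adjusted p = 0.613 by limma), and in wildtype cells by -0.06 (-0.93 to 0.82, adjusted p = 0.994). Between knockout arrays of the same number Apobec3 was lower with LPS by -0.28, -0.44 and -0.17 in replicates 1, 2 and 3, and with the replicate number as a block within the knockout arrays its adjusted p was 0.124. D730005E14Rik differed by -0.20 (-1.04 to 0.63) in knockout and 0.03 (-1.15 to 1.21) in wildtype cells, so changes of over 2-fold in either direction lie inside its wildtype interval. The fit uses 1 spread for all groups, so a wildtype interval does not measure the spread among wildtype arrays alone. With LPS and untreated, the SD of D730005E14Rik was 0.69 and 0.77 in knockout cells and 0.05 and 0.19 in wildtype cells. That of Apobec3 was 0.54 and 0.52 in knockout cells and 0.04 and 0.008 in wildtype cells. Ncf4 differed by -0.21 (-0.49 to 0.08) in knockout and -0.05 (-0.45 to 0.36) in wildtype cells. It too was lower with LPS in 3 of 3 knockout pairs of the same number (-0.34, -0.09 and -0.19), with an adjusted p of 0.299 by limma under the replicate block. Rpl3 (-0.15, -0.43 and -0.24) and Csnk1e (-0.10, -0.11 and -0.24) were also lower in 3 of 3, with adjusted p = 0.389 and 0.429 by limma under that block. Without LPS-treated knockout replicate 2, Ncf4 was at -0.33 (adjusted p = 0.117 by limma), the lowest adjusted p of the 8 genes under any setting run. Cyb5r3 differed by 0.01 (-0.34 to 0.36) and -0.02 (-0.51 to 0.48).

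For Ift27 and Csnk1e the 2 genotypes had LPS differences of opposite sign. Ift27 was at -0.17 (-0.51 to 0.17) in knockout and 0.26 (-0.22 to 0.73) in wildtype cells, with an interaction of -0.43 (SE 0.26, adjusted p = 0.948 by limma). Csnk1e was at -0.15 (-0.43 to 0.13) in knockout and 0.14 (-0.26 to 0.54) in wildtype cells, with an interaction of -0.29 (SE 0.22, adjusted p = 0.948 by limma). Neither interaction passed. Rpl3, on its brightest probe set, differed by -0.27 (-0.70 to 0.16) and -0.21 (-0.82 to 0.40), and C1qtnf6 by 0.04 (-0.20 to 0.27) and 0.07 (-0.27 to 0.40).

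**Figure D5:**
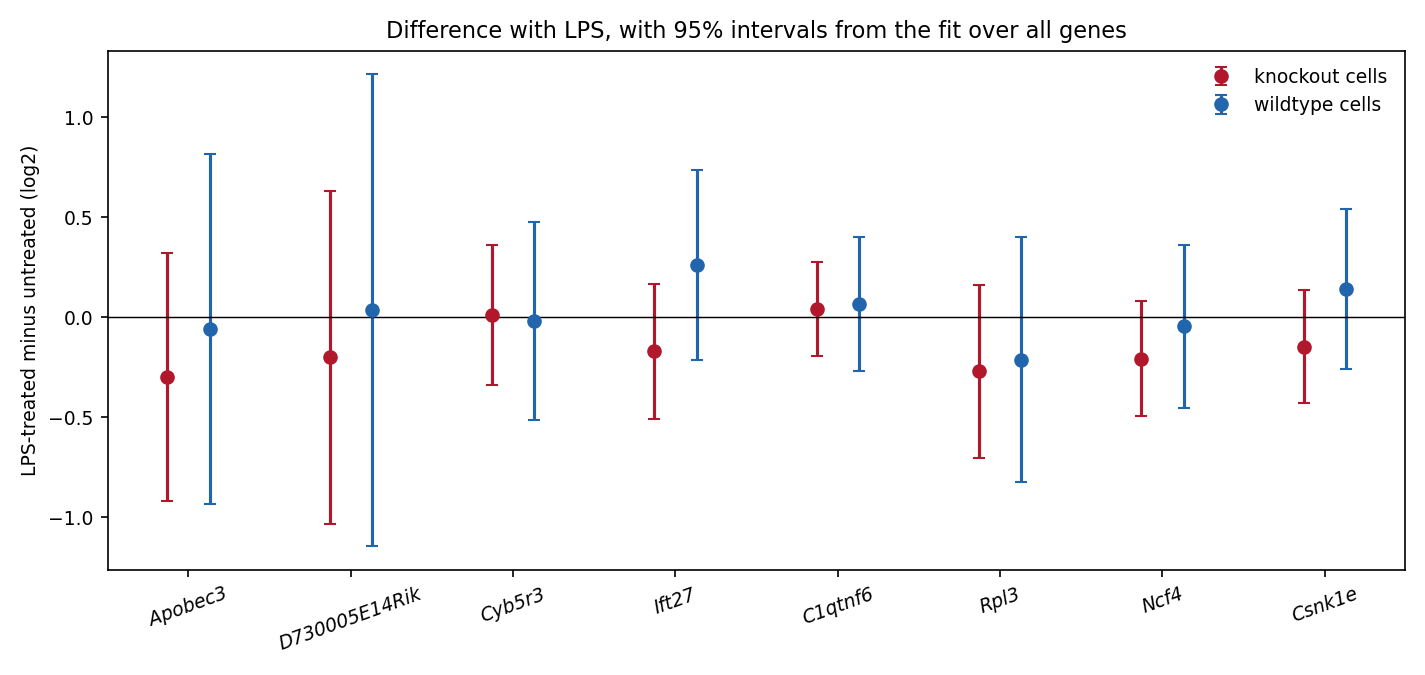
LPS-treated minus untreated log2 signal (vertical axis) of the 8 genes in knockout and wildtype cells. Points are estimates and bars 95% intervals from the limma fit over all genes, with the 3 untreated wildtype arrays counted as 1 sample. Each of the 16 intervals includes 0.

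The families of these genes were described alongside them, from lists chosen with earlier results of these data known. Among 4 measured deaminases of the AID and APOBEC family, Apobec1, which edits apolipoprotein B messenger RNA, fell with LPS in knockout cells (10.53 in LPS-treated and 11.20 in untreated knockout cells, log2 -0.67, SE 0.12, adjusted p = 0.0078 by limma). It was 1 of 4 to fall in knockout cells, where 2.93% of all genes fell. In wildtype cells 0 of 4 passed, against 1.57% of all genes called, with Apobec1 at -0.34 (SE 0.17). The interaction, which called 0 of 22180 genes, did not pass for Apobec1. Between knockout and wildtype, Apobec1 differed by -0.02 (SE 0.10).

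Among 13 NADPH oxidase genes, 1 fell with LPS in knockout cells and 0 in wildtype cells, where 2.93% and 0.234% of all genes fell. The 1 gene that fell was at -0.25 (SE 0.16) in wildtype cells. It was Cybc1, a chaperone of the oxidase's membrane subunits (7.84 in LPS-treated and 8.43 in untreated knockout cells, log2 -0.59, SE 0.12, adjusted p = 0.0129 by limma). The 12 genes other than Ncf4 differed between knockout and wildtype by -0.17 (Rac2) to 0.05 (Ncf1), and 0 of these 12 passed. The catalytic subunit gene Cybb, named after its values were seen, was at -0.10.

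Among 17 genes of the intraflagellar transport B complex, Ttc30b (log2 -0.79, SE 0.16) and Cluap1 (-0.60, SE 0.14) fell with LPS in knockout cells, with adjusted p = 0.0184 and 0.0304 by limma, and 0 passed in wildtype cells, where Ttc30b was at -0.60 (SE 0.23) and Cluap1 at -0.07 (SE 0.20). Over all genes, 2.93% fell with LPS in knockout cells and 0.234% in wildtype cells, and 0% passed for the interaction of genotype and LPS. Ttc30b, at 4.72 with LPS and 5.51 without, is dimmer than the median probe set with no gene. The list median with LPS was -0.30 in knockout cells and -0.09 in wildtype cells, against -0.004 and -0.005 over all genes tested. The 16 genes other than Ift27 differed between genotypes by -0.11 to 0.125.

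In the casein kinase 1 family (5 measured), the cytochrome b5 genes (7) and the C1q and TNF related genes (13), 0 passed with LPS in either genotype. Over all genes, 5.91% passed with LPS in knockout cells and 1.57% in wildtype cells. Between knockout and wildtype, with the chosen gene of each family left out, 0 passed. The other 4 casein kinase genes differed by 0.08 to 0.16, the other 6 cytochrome b5 genes by -0.09 to 0.11 and the other 12 C1q and TNF related genes by -0.26 to 0.01.

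Of 12 neutrophil markers, 6 fell with LPS in knockout cells and 1 in wildtype cells, where 2.93% and 0.234% of all genes fell. Between genotypes 0 passed. The list median with LPS was -0.95 in knockout and -0.98 in wildtype cells. With larger SEs in wildtype cells, the 2 counts do not show a weaker fall there. The antimicrobial peptide gene Camp fell in both genotypes (log2 -1.32, SE 0.21, in knockout and -1.49, SE 0.29, in wildtype cells). The granule enzyme genes Mpo (0.24 and -0.10) and Elane (-0.13 and -0.17), named after their values were seen, did not pass in either. Their mean log2 signal was 7.82 to 8.18 in LPS-treated and 8.67 to 9.08 in untreated knockout cells, against 7.48 to 8.52 in LPS-treated and 9.02 to 9.06 in untreated wildtype cells. Of 10 macrophage and monocyte markers, 2 fell in knockout and 1 in wildtype cells, and 0 passed between genotypes. Their part in the levels of Ncf4 and the other genes was not tested.

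Genes with the most similar profile to Rpl3 and Apobec3 over 12 arrays were taken from 11083 genes of above-median signal, the 8 genes left out. For Rpl3 these were Psca (Pearson r = 0.93), Them6 (0.89) and Hdac2 (0.89). Psca, which encodes a surface antigen, averaged 12.87 in the knockout and 6.91 in wildtype, and Them6 averaged 9.19 in the knockout and 7.60 in wildtype. For Apobec3 they were Chrna7 (0.88), Zfp13 (0.88) and Gm8465 (0.88), whose averages were lower in the knockout by 0.31, 0.23 and 0.42 on the log2 scale. The 12 points share the split by genotype and 3 nearly alike untreated wildtype arrays, and these genes were picked as the highest of many.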

How the data were processed

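RNA of 12 cultures was read on 1 Affymetrix gene array each, per the labels' protocols. The deposited table holds log2 signals per probe set, normalized by the authors; how is not stated in the labels, where the submitters' processing notes name limma alone. Of 34390 probe sets, 23521 carry 1 gene symbol, 1814 several and 9055 none in the platform annotation; those with 1 gave 22180 genes, the brightest probe set standing for each. A reference table (GRCm38.p6) gave 21991 (99.1%) of them a place in gene order, and no coordinates of it are used outside the RefSeq windows.

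Groups were compared with limma 3.58.1 (R 4.3.3), fitting a mean for each group by lmFit and moderating contrasts by eBayes, two-sided, Benjamini-Hochberg over all genes, threshold 0.05, with 10 samples and 6 residual degrees of freedom. It was tested on simulated data. The lone untreated wildtype sample is assumed to vary like the other groups. Members, lists and rules were chosen with earlier results of these data known. Named genes were the 8, Arc, nearest measured neighbours, up to 3 called members of each list and genes at the ends of a list's range. The 3 most correlated genes for Rpl3 and Apobec3 were named too. Some others are said to be named after their values were seen.

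Residuals of same-numbered arrays correlated at 0.381, 0.299 and 0.196 between the knockout groups and at 0.338, 0.358 and 0.228 between the LPS groups. Between untreated knockout and LPS-treated wildtype they correlated at 0.145, 0.196 and 0.175. Low small RNA signal is on replicates 2 and 3 of both LPS groups. Y-linked signal is on replicate 2 of both knockout groups but on replicate 1 of LPS-treated wildtype. Whether a shared number marks a pair of cultures was not tested. Untreated wildtype showed no such correlation with LPS-treated wildtype (-0.03 to 0.01). Beside the main setting 24 others were tried.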

Additional observations from a re-analysis of the deposited data

How the results depend on the processing

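Over 24 other settings, 0 of the 8 genes passed for LPS in knockout cells, LPS in wildtype cells or the interaction, with a lowest adjusted p of 0.117 (limma) among 573 values. With the replicate block over 12 arrays or within the knockout arrays, 0 were called as well, and the block changed no call. The 124 other genes of the stretch also kept 0 calls by genotype in every setting, 12 arrays as 12 samples included. The count of the 8 genes without overlap, which their choice favours, was 7 in the main setting, against 0.442% of all genes tested. It was 6 after quantile normalization, 5 with each array shifted to the same median, and 7 to 8 without 1 replicate. The share over all genes was not counted for these other settings, and fewer arrays make separation easier for any gene. With genes above the median signal, C1qtnf6 drops out. The genotype difference kept its sign in each setting that gave one (not recomputed for the replicate blocks and for trended, robust estimation), except for Rpl3 on its dimmest probe set (-0.084). On the other Rpl3 probe set it was 0.11. Without the 4 arrays of low small RNA signal it was 0.79 for Rpl3, -0.72 for Apobec3 and -1.04 for D730005E14Rik. That setting keeps replicate 1 as the only LPS-treated array of each genotype. Counts without overlap cannot be given for fits with a term.

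Some LPS values, none called, changed sign, and the cause was not tested. In knockout cells these were C1qtnf6 at -0.0038 after quantile normalization, Cyb5r3 at -0.029 with the same median per array and -0.012 without the Y-signal arrays, D730005E14Rik at 0.20 with a term for low small RNA signal and 0.58 without those arrays, and Apobec3 at 0.32 without them. In wildtype cells they were, with the same median, Ncf4 at 0.01 and Cyb5r3 at 0.037; with a term for Y signal, Apobec3 at 0.051 and Cyb5r3 at 0.085; with a term for low small RNA signal, Apobec3 at 0.24 and Cyb5r3 at 0.054; and without those arrays, Rpl3 at 0.20. Interactions that changed sign were Rpl3 at 0.029 (quantile), 0.22 (without Y-signal arrays) and 0.0795 (Y term), Cyb5r3 at -0.066 (same median), -0.0013 (without Y-signal arrays) and -0.075 (Y term), and, without the low small RNA arrays, Apobec3 at 0.40 and D730005E14Rik at 0.52. Without the low small RNA arrays, replicate 1 is the only LPS-treated array of each genotype, set against all untreated arrays. Between knockout arrays of that number the LPS difference was -0.28 for Apobec3 and -0.29 for D730005E14Rik.

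Without 1 replicate at a time, the LPS difference in knockout cells ranged from -0.61 to 0.0013 for Apobec3 and from -0.59 to 0.23 for D730005E14Rik, the highest of each being without untreated knockout replicate 1 and the lowest without LPS-treated knockout replicate 1, from -0.024 to 0.12 for C1qtnf6 and from -0.15 to 0.15 for Cyb5r3. In wildtype cells it ranged from -0.0665 to 0.12 for D730005E14Rik, from -0.0897 to 0.016 for Ncf4, from -0.014 to 0.16 for C1qtnf6 and from -0.049 to 0.0062 for Cyb5r3. The interaction ranged from -0.21 to 0.15 for Rpl3, -0.55 to 0.0585 for Apobec3, -0.63 to 0.20 for D730005E14Rik, -0.12 to 0.055 for C1qtnf6 and -0.13 to 0.17 for Cyb5r3.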

Other observations

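The split of knockout arrays by replicate number was put to a limma F test over all genes, a test chosen after the values were seen, on the 6 knockout arrays with a term for LPS. It called 6 of 22180 genes (0.0271%) and none of the 8. The adjusted p was 0.125 for Apobec3 and 0.125 for D730005E14Rik (unadjusted p = 0.000431 and 0.000384), 0.298 for Cyb5r3 and 0.391 for Rpl3 by limma. Replicate 2 minus replicate 1 was -0.92 on the log2 scale for Apobec3, -1.24 for D730005E14Rik, -0.45 for Cyb5r3 and 0.46 for Rpl3, and replicate 3 minus replicate 1 was -0.90, -1.23, 0.01 and 0.30. Over the 132 measured genes from Ift27 to Cyb5r3, deviations of same-numbered knockout arrays from their group means correlated at 0.43 between LPS-treated and untreated cells, against 0.30 over all genes, and at 0.35 with the 8 genes left out. Genes on the same arrays are not independent, so these are descriptions.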
